A study of Homo sapiens with 4 samples.

Results

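The genes of cholesterol and fatty acid synthesis were examined in NB4 cells that overexpressed the histone demethylase JMJD3. The 38 genes were taken by symbol from the 60662 genes of the deposited table, and each was found there once. They comprise 19 cholesterol synthesis enzymes, 6 genes of sterol sensing and control of the sterol regulatory element-binding proteins (SREBP), 7 fatty acid synthesis enzymes, and 6 genes for the liver X receptors (LXR) and their targets. NB4 is an established human acute promyelocytic leukemia line that carries the PML-RARα fusion. One group was transduced with the control vector and the other with the JMJD3-expression vector, with 2 RNA-seq libraries in each. According to the methods, lentivirally transduced leukemia lines were sorted for GFP, so each group is a sorted population and not a single clone. Depth was 39078443 estimated counts for vector library 1, 40768225 for vector library 2, 35176388 for JMJD3 library 1 and 34704909 for JMJD3 library 2. The labels do not say whether libraries of a group came from separate cultures, so the p-values measure only the spread between these libraries, which may be technical.

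Cholesterol is built from acetyl-CoA through mevalonate, farnesyl diphosphate, squalene and lanosterol, and fatty acids are built from the same precursor. SREBP precursors sit in the endoplasmic reticulum with their escort SCAP. When sterols are plentiful INSIG proteins hold the complex there, and when sterols run low it moves to the Golgi, where SREBP is cleaved and released to switch on synthesis genes. LXR respond to oxysterols and raise cholesterol export as well as transcription of SREBF1.

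KDM6B (ENSG00000132510), the gene for JMJD3, was at 15.8 and 13.7 CPM (counts scaled to library size after TMM normalization) in the vector libraries and at 37.9 and 44.1 CPM in the JMJD3 libraries. Both JMJD3 libraries were above both vector libraries, as their labels say, with a log2 fold change of 1.48 (SE 0.13, adjusted p = 0.00114 by edgeR's quasi-likelihood test). Vector-derived and endogenous KDM6B transcripts were counted together. The promyelocyte gene MPO, for a granule peroxidase, was at 13876 and 14110 CPM in the vector libraries and at 9379 and 9421 CPM in the JMJD3 libraries. ELANE, for neutrophil elastase, was close to absent, at 13 and 7 counts in the vector libraries and 1 and 2 counts in the JMJD3 libraries.

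Lipid synthesis genes were mostly lower in JMJD3 cells. At an edgeR adjusted p under 0.05, 23 of the 38 genes fell (60.5%) and 4 rose (10.5%), and 11 were not called. Across all 15246 genes tested, 19.1% were lower and 21.6% higher by the same rule. All 38 genes passed the expression filter, ABCG1 only through the JMJD3 libraries, where it was high, so that its call is no support for a difference. With a minimum of 10 counts in every library, which removes ABCG1, 23 of 37 were lower and 3 higher, against 19.5% and 22% of the 13969 genes then tested. For the 38 genes the median log2 fold change was -0.44, against 0.041 for all genes tested. With a change of at least 2-fold as a second condition, 7 of the 38 were lower and 1, ABCG1, higher, where 2.82% and 7.55% of all genes tested were. Both JMJD3 libraries lay below both vector libraries for 29 of the genes and above them for 7, while the groups overlapped for 2 (TM7SF2 and HSD17B7). The corresponding shares of all genes tested were 34.8% below and 39.6% above. Summed over the 38 genes, the level was 4985 and 4810 CPM in the vector libraries and 3072 and 3164 CPM in the JMJD3 libraries. In bulk RNA, fewer cells of a type and less RNA per cell cannot be told apart. By the labels, lane 20 carried vector library 1, and lane 17 carried all the others. Without vector library 1, and so within lane 17, 25 of the 38 genes were lower and 4 higher, against 27.4% and 28.5% of all genes tested. Without vector library 2 the numbers were 26 and 5, against 21.7% and 22.4%. Without JMJD3 library 1 they were 17 and 2, against 9.29% and 13.8%, and without JMJD3 library 2 they were 15 and 2, against 7.43% and 12.6%. In these fits the lone library of a group is assumed to vary like the other group.

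**Figure D1:**
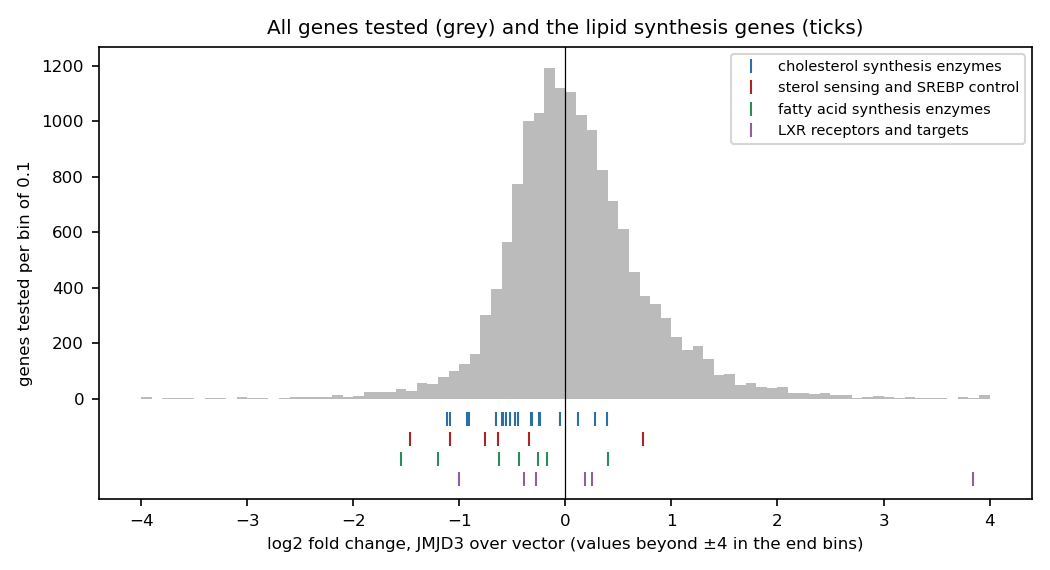
Distribution of the log2 fold change (JMJD3 over vector) of the 15246 genes tested, in bins of 0.1 (grey bars, genes per bin), with 1 tick for each of the 38 lipid synthesis genes in a line for each role. Most ticks lie left of 0, and the tick farthest to the right is ABCG1.

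**Figure D2:**
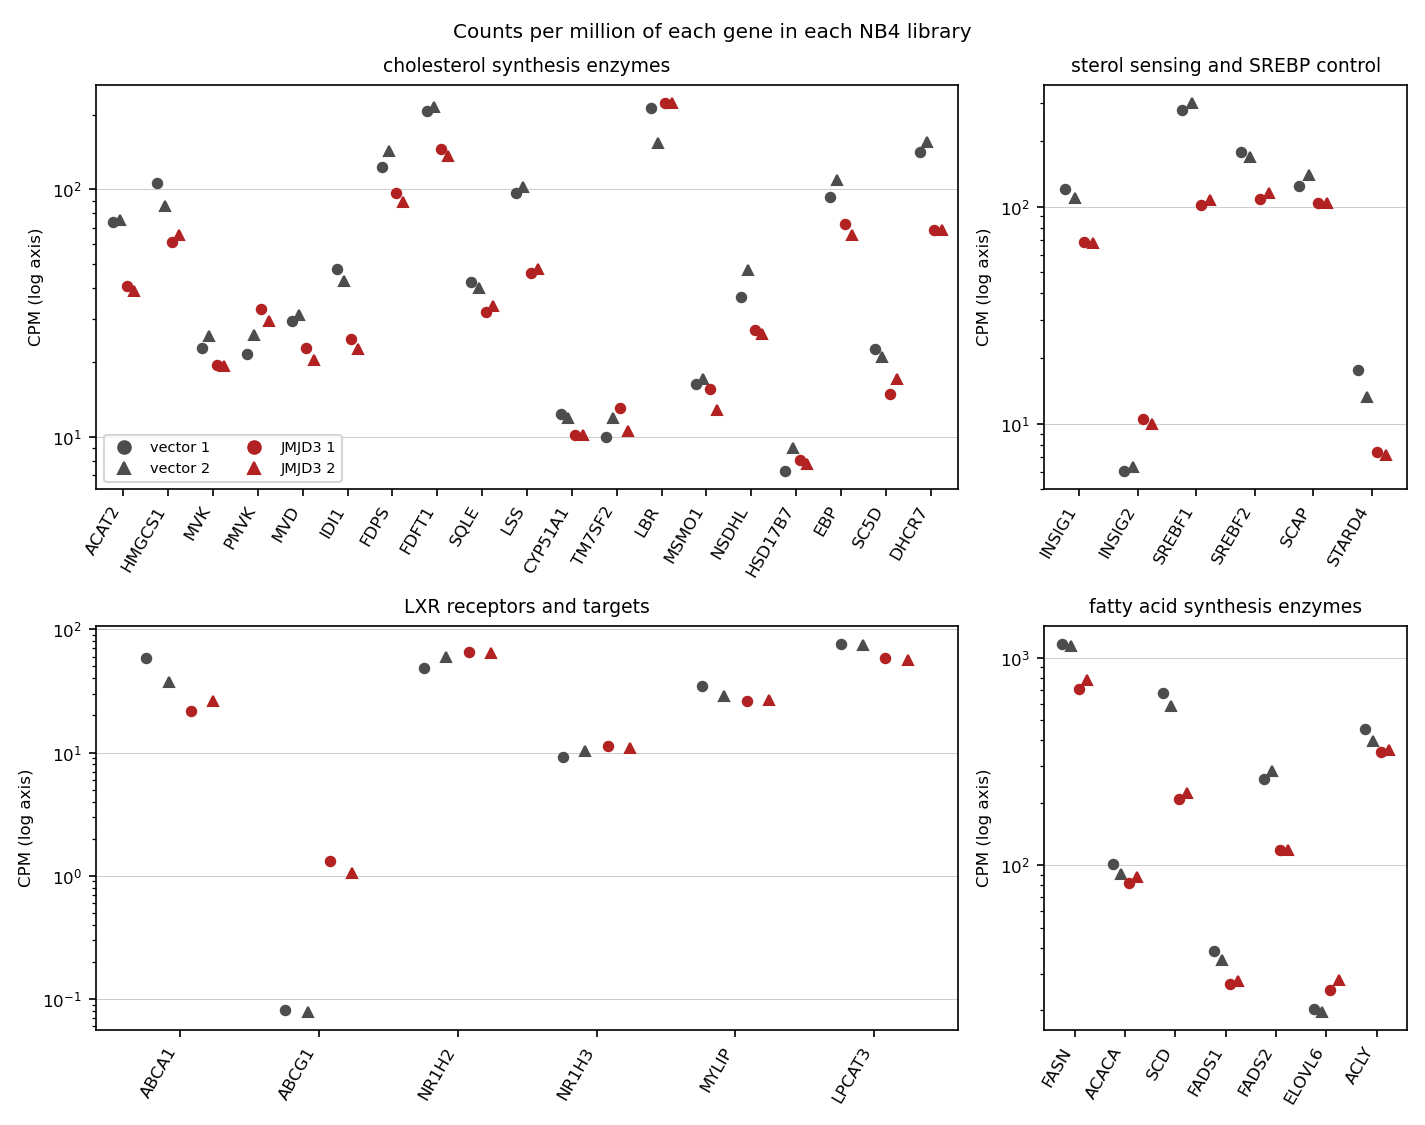
Level of each of the 38 genes in CPM (log axis) in each library, with circles for replicate 1 and triangles for replicate 2, vector in grey and JMJD3 in red. Both JMJD3 libraries are below both vector libraries for 29 genes.

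The control genes of the pathway were examined first. SREBF1, which encodes the SREBP that acts mainly on fatty acid genes, was at 277 and 300 CPM in the vector libraries and at 102 and 107 CPM in the JMJD3 libraries. The groups were far apart, and SREBF1 fell to 36.2% of its vector level (log2 fold change -1.46, SE 0.08, edgeR adjusted p = 0.000375). SREBF2, which encodes the SREBP that acts mainly on cholesterol genes, was at 179 and 169 CPM in the vector libraries and at 108 and 115 CPM in the JMJD3 libraries. It fell less than SREBF1, to 64.3% of its vector level (log2 fold change -0.64, SE 0.08, edgeR adjusted p = 0.00272). The difference between the 2 genes was not tested.

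The INSIG genes moved in opposite directions. INSIG1, whose transcription SREBP itself drives, was at 120 and 110 CPM in the vector libraries and at 68.3 and 67.7 CPM in the JMJD3 libraries, and it fell (log2 fold change -0.76, SE 0.09, edgeR adjusted p = 0.00205). INSIG2, the paralog that SREBP does not drive in the same way, was at 6.07 and 6.31 CPM in the vector libraries and at 10.5 and 10.0 CPM in the JMJD3 libraries. It rose to 166% of its vector level (log2 fold change 0.73, SE 0.12, edgeR adjusted p = 0.0053). Its call was lost on the FPKM scale, with log2 fold changes of 0.28 and 0.33 at pseudocounts of 1 and 0.1. STARD4, a carrier of sterols through the cytosol, was at 17.7 and 13.3 CPM in the vector libraries and at 7.40 and 7.21 CPM in the JMJD3 libraries. Its JMJD3 libraries were nearly equal while its vector libraries differed, and it fell to 47.1% of its vector level (log2 fold change -1.08, SE 0.16, edgeR adjusted p = 0.00396). SCAP moved less than these, from 124 and 139 CPM in the vector libraries to 104 and 104 CPM in the JMJD3 libraries (log2 fold change -0.34, SE 0.09, edgeR adjusted p = 0.0228). Its call was lost without JMJD3 library 1 (log2 fold change -0.34) and without JMJD3 library 2 (also -0.34), with no expression filter and with the replicate block. In all, 5 of the 6 control genes fell (83.3%, against 19.1% of all genes tested) and 1 rose (16.7%, against 21.6%). The 6 genes had a median log2 fold change of -0.70.

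**Figure D3:**
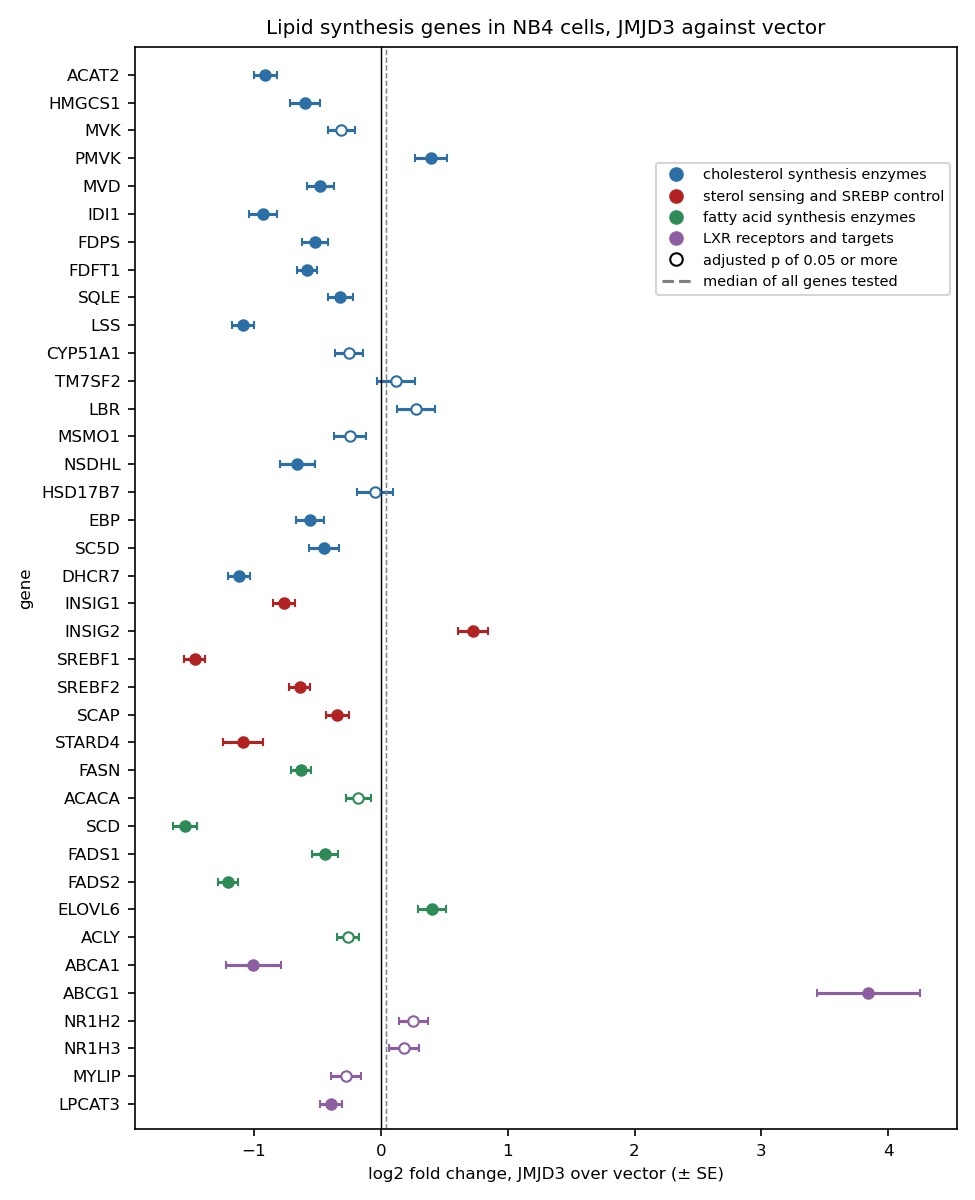
Log2 fold change (JMJD3 over vector) with its SE for each of the 38 genes, coloured by role. Filled points have an edgeR adjusted p under 0.05, open points do not, and the dashed line is the median of all genes tested (0.041). The lowest value is that of SCD and the highest that of ABCG1, whose fitted value depends on the prior count since each vector library had 3 counts.

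Among the 19 cholesterol synthesis enzymes, 12 fell (63.2%, against 19.1% of all genes tested), 1 rose (5.26%, against 21.6%) and 6 were not called. The 19 enzymes had a median log2 fold change of -0.48. Their summed level was 1323 and 1320 CPM in the vector libraries and 973 and 943 CPM in the JMJD3 libraries. In the steps up to farnesyl diphosphate, ACAT2, which joins acetyl-CoA units, was at 73.7 and 75.4 CPM in the vector libraries and at 40.5 and 38.8 CPM in the JMJD3 libraries. The replicates were close to each other, and ACAT2 fell to 53.2% of its vector level (log2 fold change -0.91, SE 0.09, edgeR adjusted p = 0.00147). HMGCS1, which makes HMG-CoA, was at 106 and 85.5 CPM in the vector libraries and at 61.2 and 65.6 CPM in the JMJD3 libraries (log2 fold change -0.60, SE 0.12, edgeR adjusted p = 0.0103). IDI1, which isomerizes isopentenyl diphosphate, was at 47.6 and 42.8 CPM in the vector libraries and at 24.9 and 22.7 CPM in the JMJD3 libraries. It fell to 52.6% of its vector level (log2 fold change -0.93, SE 0.11, edgeR adjusted p = 0.00228). MVD, the mevalonate diphosphate decarboxylase, and FDPS, which makes farnesyl diphosphate, also fell, with log2 fold changes of -0.48 and -0.52.

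The mevalonate kinases are given next. PMVK, which phosphorylates phosphomevalonate, was at 21.6 and 25.8 CPM in the vector libraries and at 32.9 and 29.5 CPM in the JMJD3 libraries. It was the only cholesterol synthesis enzyme called higher (log2 fold change 0.40, SE 0.13, edgeR adjusted p = 0.0445), and the call was lost with DESeq2, on the FPKM scale, with no expression filter, with the replicate block and when vector library 1, JMJD3 library 1 or JMJD3 library 2 was left out (log2 fold changes 0.23, 0.32 and 0.47). MVK, the first of the kinases, was at 22.9 and 25.6 CPM in the vector libraries and at 19.6 and 19.4 CPM in the JMJD3 libraries and was not called (log2 fold change -0.31, SE 0.11, edgeR adjusted p = 0.0546). It was called with DESeq2 size factors (-0.35) and without vector library 1 (-0.43), and not without vector library 2 (-0.23).

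From squalene on, FDFT1, the squalene synthase, was at 206 and 214 CPM in the vector libraries and at 145 and 136 CPM in the JMJD3 libraries (log2 fold change -0.58, SE 0.08, edgeR adjusted p = 0.00294). LSS, which closes the ring to form lanosterol, was at 96.9 and 102 CPM in the vector libraries and at 45.9 and 47.5 CPM in the JMJD3 libraries. LSS fell to 47.1% of its vector level (log2 fold change -1.09, SE 0.09, edgeR adjusted p = 0.000997). DHCR7, which reduces 7-dehydrocholesterol to cholesterol in the last step, was at 141 and 155 CPM in the vector libraries and at 68.2 and 68.4 CPM in the JMJD3 libraries. From counts with all libraries it had the lowest log2 fold change of the 19 enzymes (-1.12, SE 0.09, edgeR adjusted p = 0.000929) and fell to 46.1% of its vector level. LSS was close to it. On the FPKM scale LSS was the lower, at -1.14 and -1.19, with DHCR7 at -1.04 and -1.06 (pseudocounts of 1 and 0.1). LSS and DHCR7 were the only enzymes of the group that fell by at least 2-fold. NSDHL, EBP and SC5D, which act between lanosterol and cholesterol, fell with log2 fold changes of -0.66, -0.56 and -0.44, and SQLE, the squalene epoxidase, with one of -0.32. On the FPKM scale SC5D was at -0.66 and -0.72 at pseudocounts of 1 and 0.1, and still called.

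The other enzymes after lanosterol were not called. CYP51A1, the lanosterol demethylase, was at 12.4 and 11.9 CPM in the vector libraries and at 10.2 and 10.2 CPM in the JMJD3 libraries (log2 fold change -0.25, SE 0.11). MSMO1, the sterol C4-methyl oxidase, had a log2 fold change of -0.24 (-0.39 to -0.11 with a library left out), and HSD17B7, a keto-reductase, one of -0.046. The sterol C14 reductases TM7SF2 and LBR, of which LBR is also a receptor of the inner nuclear membrane, had log2 fold changes of 0.12 and 0.28. The sign of TM7SF2 turned on the FPKM scale and without vector library 1 or JMJD3 library 1. That of HSD17B7 turned without vector library 2. LBR was at 213 and 154 CPM in the vector libraries and at 223 and 222 CPM in the JMJD3 libraries, so that vector library 2 alone was low. Without vector library 1 it was called higher, at a log2 fold change of 0.50, and without vector library 2 its value was 0.064. On the FPKM scale at a pseudocount of 0.1, LBR was at 0.43 and CYP51A1 at -0.13, neither called.

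Several of these calls were lost under an alternative. Without JMJD3 library 1, MVD, SQLE and SC5D were no longer called, at log2 fold changes of -0.56, -0.28 and -0.34. Without JMJD3 library 2 the same genes, at -0.40, -0.36 and -0.55, and also FDPS and EBP, at -0.46 and -0.49, were no longer called. HMGCS1 and SQLE were not called on the FPKM scale, and HMGCS1, SQLE, NSDHL and SC5D not with no expression filter. SQLE was also not called with upper quartile scaling (-0.28) or with the replicate block. ACAT2, IDI1, FDFT1, LSS and DHCR7 were called under every alternative that kept the same threshold, and of these LSS and DHCR7 also met the 2-fold condition.

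Per transcript length, in FPKM (fragments scaled to transcript length in kilobases and to library size), the enzymes differed widely in level. EBP was highest in vector cells at 180 ± 23.2 FPKM (SD, n = 2), followed by FDFT1 at 171 ± 2.17 FPKM (SD, n = 2), and these means differed by less than the SD of EBP. FDPS followed at 145 ± 17.8 FPKM (SD, n = 2). The lowest level was that of CYP51A1, at 4.67 ± 0.014 FPKM (SD, n = 2). In JMJD3 cells EBP at 119 ± 7.98 FPKM (SD, n = 2) and FDFT1 at 111 ± 3.33 FPKM (SD, n = 2) were again the highest, and CYP51A1 at 4.27 ± 0.199 FPKM (SD, n = 2) the lowest. LBR, at 94.8 ± 6.11 FPKM (SD, n = 2), lay within 1 SD of FDPS, at 100 ± 6.37 FPKM (SD, n = 2), in JMJD3 cells. Enzymes of low level, CYP51A1, HSD17B7, MSMO1 and TM7SF2, were among those not called.

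**Figure D4:**
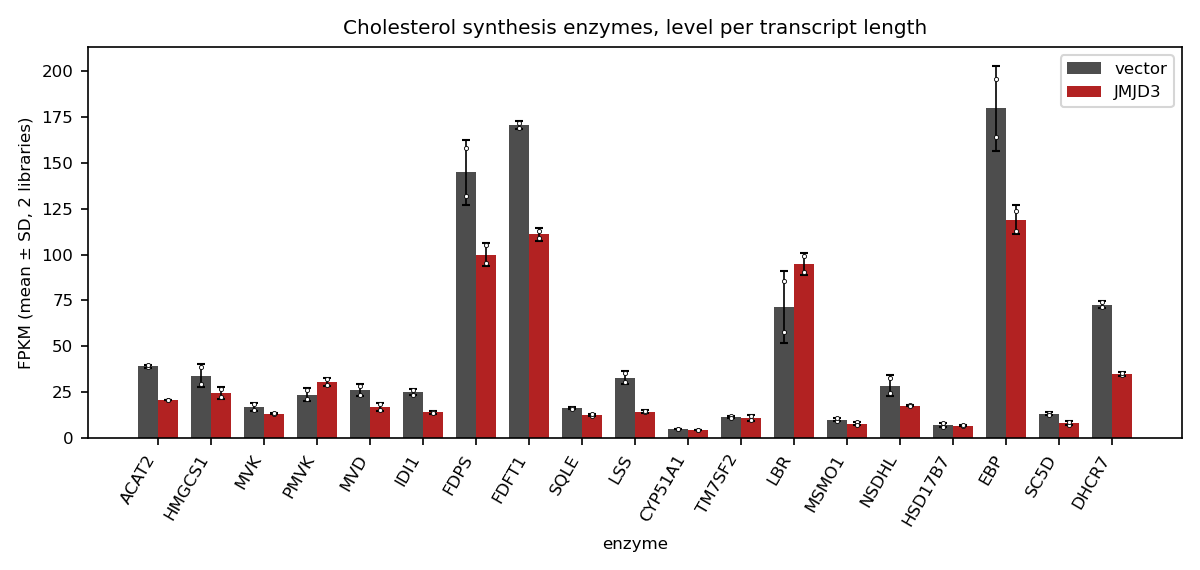
Level of the 19 cholesterol synthesis enzymes per transcript length (FPKM), in the order of the pathway from ACAT2 to DHCR7. Bars are means of 2 libraries with the SD, dots are single libraries, vector is grey and JMJD3 red. EBP, FDFT1 and FDPS are the highest in vector cells, and DHCR7 is at 72.7 FPKM in vector and 34.8 FPKM in JMJD3 cells.

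Of the 7 fatty acid synthesis enzymes 4 fell (57.1%, against 19.1% of all genes tested), 1 rose (14.3%, against 21.6%) and 2 were not called. The 7 enzymes had a median log2 fold change of -0.44. Their summed level was 2710 and 2542 CPM in the vector libraries and 1515 and 1625 CPM in the JMJD3 libraries. SCD, the desaturase that makes oleate from stearate, was at 674 and 583 CPM in the vector libraries and at 209 and 222 CPM in the JMJD3 libraries. From counts with all libraries it had the lowest log2 fold change of the 38 genes (-1.54, SE 0.09, edgeR adjusted p = 0.000432), at 34.3% of its vector level. SREBF1 was close, at -1.46 (SE 0.08), and the order of these 2 genes was not stable. On the FPKM scale SREBF1 was at -1.775 and -1.794 and SCD at -1.543 and -1.563, at pseudocounts of 1 and 0.1. Without vector library 1 SREBF1 was at -1.558 and SCD at -1.475. FADS2, which opens the desaturation of polyunsaturated fatty acids, was at 260 and 285 CPM in the vector libraries and at 118 and 119 CPM in the JMJD3 libraries. FADS2 fell to 43.4% of its vector level (log2 fold change -1.20, SE 0.08, edgeR adjusted p = 0.000606). FADS1, the neighbouring desaturase of the same route, moved less, from 38.8 and 34.9 CPM in the vector libraries to 26.8 and 27.6 CPM in the JMJD3 libraries (log2 fold change -0.44, SE 0.11, edgeR adjusted p = 0.0175).

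FASN, the fatty acid synthase, was at 1163 and 1132 CPM in the vector libraries and at 703 and 780 CPM in the JMJD3 libraries. It fell to 64.7% of its vector level (log2 fold change -0.63, SE 0.08, edgeR adjusted p = 0.00247). On the FPKM scale its log2 fold change was -1.05 and -1.06 at pseudocounts of 1 and 0.1. The enzymes that supply it had smaller log2 fold changes on either scale, and their difference from FASN was not tested. ACLY, which makes cytosolic acetyl-CoA from citrate, was at 453 and 398 CPM in the vector libraries and at 351 and 360 CPM in the JMJD3 libraries (log2 fold change -0.26, SE 0.09, edgeR adjusted p = 0.0512). ACACA, which makes malonyl-CoA, was at 101 and 90.5 CPM in the vector libraries and at 81.8 and 88.0 CPM in the JMJD3 libraries (log2 fold change -0.18, SE 0.10, edgeR adjusted p = 0.18). Neither passed the threshold, although for both the JMJD3 libraries lay below the vector libraries. ACLY was called with DESeq2 and without either vector library (log2 fold changes -0.20 and -0.35), and ACACA on the FPKM scale (-0.58 and -0.60 at pseudocounts of 1 and 0.1) and without vector library 2 (-0.25), but not without vector library 1 (-0.13). ELOVL6, which lengthens palmitate to stearate, was at 20.3 and 19.7 CPM in the vector libraries and at 25 and 27.9 CPM in the JMJD3 libraries, and it rose (log2 fold change 0.40, SE 0.11, edgeR adjusted p = 0.0247). The calls of FADS1 and ELOVL6 were lost on the FPKM scale (FADS1 at -0.40 and -0.45 and ELOVL6 at 0.61 and 0.67 at pseudocounts of 1 and 0.1), with no expression filter, without JMJD3 library 1 (log2 fold changes -0.42 and 0.48) and without JMJD3 library 2 (-0.46 and 0.32).

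The LXR group had log2 fold changes of both signs, and its called genes other than ABCG1 fell. Of its 6 genes 2 fell (33.3%, against 19.1% of all genes tested), 1 (ABCG1) was called higher (16.7%, against 21.6%) and 3 not called. Its median log2 fold change was -0.046, and -0.27 with a minimum of 10 counts, which removes ABCG1. The receptor genes NR1H3 (LXRα) and NR1H2 (LXRβ) were not called, with log2 fold changes of 0.18 and 0.26. NR1H2 was called higher without vector library 2, at 0.40, and was at 0.085 without vector library 1, where NR1H3 was at 0.069. ABCA1, which exports cholesterol to lipid-poor apolipoprotein, was at 58.7 and 37.4 CPM in the vector libraries and at 21.8 and 26.2 CPM in the JMJD3 libraries. The groups did not overlap but the vector libraries differed, and ABCA1 fell to 49.9% of its vector level (SE 0.22 on the log2 scale, edgeR adjusted p = 0.0125). Its call was lost with no expression filter. ABCG1, which exports cholesterol to lipoprotein particles, had 3 counts in each vector library and 49 and 39 counts in JMJD3 libraries 1 and 2. The ratio of its scaled counts was 14.9, with an exact 95% counting interval of 6.58 to 41.7 that covers counting error only. Its level was low in both groups, 0.0809 and 0.0786 CPM in the vector libraries and 1.32 and 1.05 CPM in the JMJD3 libraries. Since it passed the filter only through the group where it was high, these values are a description. For ABCA1 both JMJD3 libraries were below both vector libraries, and for ABCG1 above them. LPCAT3, which places polyunsaturated chains in phospholipids, was at 76.1 and 74.4 CPM in the vector libraries and at 58.8 and 56.0 CPM in the JMJD3 libraries (log2 fold change -0.39, SE 0.09, edgeR adjusted p = 0.0138). Its call was lost without JMJD3 library 1 (-0.43) or JMJD3 library 2 (-0.36). MYLIP, a ubiquitin ligase that LXR induces, was not called (log2 fold change -0.27), except without vector library 2 (-0.39), and was at -0.18 without vector library 1 and at -0.13 on the FPKM scale at either pseudocount.

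Some of these genes share exon bases with others in GENCODE release 44 on GRCh37, and the sources used here do not say whether counting used strand. LPCAT3 shared 66% of its exon bases with EMG1 on the opposite strand, which had 1034 and 1066 counts in the vector libraries and 614 and 595 in the JMJD3 libraries. ACAT2 shared 17.2% with TCP1 on the opposite strand, which had 22936 and 23771 counts in the vector libraries and 17128 and 16756 in the JMJD3 libraries. FADS1 and FADS2 shared 4.79% and 4.64% of their exon bases with each other. CYP51A1 and EBP shared 68.2% and 36.4% of their exon bases with other annotated genes on the same strand. HMGCS1 shared 37.7% with an opposite-strand gene of at most 35 counts. HSD17B7 has a pseudogene, HSD17B7P2, with 27 and 38 counts in the vector libraries and 56 and 44 in the JMJD3 libraries. The values of these genes are uncertain to the extent that reads were divided between them.

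Since many of the genes fell together, their promoters were searched for letters that the rule for choosing them had not used. RefSeq promoter windows (GRCh38.p14, 250 bases before to 50 after the start) matched 33 of the 38 genes by symbol. SQLE, ACAT2, FASN, ABCG1 and FDFT1 had none. The sterol element TCACNCCAC, to which SREBP is known to bind, was searched on both strands and was found in 1.13% of all 35116 windows and, by gene, in 1.45% of the tested genes with a window and in 1 of the 33, SREBF2. The CCAAT box, bound by NF-Y, which is known to act beside SREBP, was in 34.6% of all windows. By gene, it was in 23 of the 33 (69.7%), against 43% of the 9668 tested genes with a window, and in 15 of the 19 that were lower and 8 of the other 14. The GC box GGGCGG was in 45% of all windows and, by gene, in 31 of the 33, against 75.4% of the tested genes with a window, and in 18 of the 19 and 13 of the other 14. The E-box CACGTG was in 7.26% of all windows and, by gene, in 5 of the 33 (15.2%), against 12.7% of the tested genes, all 5 among the 19 that were lower. A match is a description of the letters in this window only.

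The SREBF2 window is shown for its sterol element. Those of DHCR7, STARD4 and SCD are shown by a choice made after the values were seen. From counts, each had the lowest log2 fold change in its role among genes with a CCAAT box. On the FPKM scale LSS, which also has a CCAAT box, was below DHCR7. In the LXR group the lowest gene with a CCAAT box is LPCAT3, whose window is not shown. Those shown lie at chr22:41832855-41833154 (plus strand), chr11:71448344-71448643 (minus strand), chr5:111512486-111512785 (minus strand) and chr10:100346983-100347282 (plus strand) of GRCh38.p14, each spanning the gene's start. Capitals mark the sterol element and the CCAAT box, read as ATTGG where it lies on the other strand. In SREBF2 the sterol element and a CCAAT box lie close together, and the other windows hold a pair of CCAAT boxes each.
SREBF2: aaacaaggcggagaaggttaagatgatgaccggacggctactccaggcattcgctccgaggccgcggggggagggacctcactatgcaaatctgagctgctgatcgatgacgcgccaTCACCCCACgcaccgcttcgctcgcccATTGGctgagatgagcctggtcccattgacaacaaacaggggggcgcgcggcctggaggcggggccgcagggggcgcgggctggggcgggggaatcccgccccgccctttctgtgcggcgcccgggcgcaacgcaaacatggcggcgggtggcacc
DHCR7: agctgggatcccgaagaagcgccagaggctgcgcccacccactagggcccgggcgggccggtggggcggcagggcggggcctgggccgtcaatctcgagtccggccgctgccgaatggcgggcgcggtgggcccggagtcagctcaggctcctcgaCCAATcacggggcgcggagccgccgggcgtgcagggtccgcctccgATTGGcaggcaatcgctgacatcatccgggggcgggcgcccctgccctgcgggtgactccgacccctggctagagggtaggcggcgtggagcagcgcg
STARD4: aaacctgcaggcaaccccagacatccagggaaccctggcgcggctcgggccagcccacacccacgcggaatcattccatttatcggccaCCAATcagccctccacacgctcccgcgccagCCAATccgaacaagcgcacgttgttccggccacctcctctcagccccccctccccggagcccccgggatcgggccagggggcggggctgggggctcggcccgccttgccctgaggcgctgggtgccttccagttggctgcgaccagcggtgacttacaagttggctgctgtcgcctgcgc
SCD: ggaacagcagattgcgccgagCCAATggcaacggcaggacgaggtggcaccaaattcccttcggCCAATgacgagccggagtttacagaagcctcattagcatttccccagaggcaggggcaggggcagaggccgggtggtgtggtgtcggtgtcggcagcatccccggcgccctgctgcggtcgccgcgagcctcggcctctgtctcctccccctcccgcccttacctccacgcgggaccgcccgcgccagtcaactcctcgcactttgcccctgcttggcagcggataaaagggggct

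Lists of other lipid genes were counted in the same way, beside the 21.6% higher and 19.1% lower of all genes tested. Among genes for SREBP processing and degradation, 5 of 14 tested rose (35.7%) and 2 fell (14.3%). RNF145, a ubiquitin ligase of the endoplasmic reticulum, was at 12.8 and 11.9 CPM in the vector libraries and at 30.6 and 29.8 CPM in the JMJD3 libraries, with a log2 fold change of 1.29. PAQR3 and ERLIN2 rose with log2 fold changes of 0.62 and 0.51, and RNF139 and STK11 fell with -0.40 and -0.36. In the isoprenoid branch, which uses the same intermediates as cholesterol, 2 of 13 rose (15.4%), CHM with 0.64 and GGPS1 with 0.39, and 4 fell (30.8%), with the lowest values at COQ2 (-0.74), IDI2 (-0.61) and RABGGTB (-0.52).

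Of 17 cholesterol trafficking and esterification genes tested, 7 rose (41.2%, against 21.6% of all genes tested), 2 fell (11.8%, against 19.1%) and 8 were not called, with a median log2 fold change of 0.29. The list's summed level was 907 and 927 CPM in the vector libraries and 897 and 917 CPM in the JMJD3 libraries. ABCA7, a lipid transporter, was at 9.09 and 7.94 CPM in the vector libraries and at 34.3 and 38.3 CPM in the JMJD3 libraries, with a log2 fold change of 2.09. STARD5, a sterol carrier, and HSD3B7, of bile acid synthesis, rose with log2 fold changes of 1.93 and 1.07. VLDLR and SCARB1, both lipoprotein receptors, fell with -1.36 and -0.48. Among fatty acid activation and elongation genes 6 of 22 fell (27.3%), led by the citrate carrier SLC25A1 (-0.93), FADS3 (-0.57) and HACD3 (-0.52), and 3 rose (13.6%), ACSS2 (0.62), ACSL6 (0.54) and ELOVL3 (0.32). Among fatty acid oxidation genes 11 of 24 fell (45.8%), led by the electron carriers ETFA (-0.78) and ETFDH (-0.71) and the hydratase ECHS1 (-0.66), and 3 rose (12.5%), PPARA (0.79), PPARD (0.71) and ACAD10 (0.34). So genes of fatty acid breakdown were among those lower, as were genes of synthesis. Of 16 glycerolipid and lipid droplet genes tested 3 rose (18.8%), GPAM (0.63), LPIN1 (0.59) and DGAT2 (0.46), and 2 fell (12.5%), AGPAT2 (-0.47) and PNPLA2 (-0.39), neither share above that of all genes tested. For each of these calls the edgeR adjusted p was under 0.05. On the FPKM scale the direction of PPARA and LPIN1 turned. PPARA was at 3.32 and 2.45 FPKM in the vector libraries and at 2.17 and 1.96 FPKM in the JMJD3 libraries, so its rise holds for counts only. LPIN1 was at 13.7 and 2.5 FPKM in the vector libraries, far apart, and at 4 and 5.14 FPKM in the JMJD3 libraries, which lie between them. With limma on log2(FPKM + 0.1), added after seeing the data, 21 of the 32 genes named from these lists were called in the same direction (ERLIN2 at 0.92), and RNF139, STK11, CHM, GGPS1, ACSL6, ELOVL3, GPAM, DGAT2 and ACAD10 were not called (CHM at 0.30 and DGAT2 at 0.24).

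Some marker genes of cell types also differed between the groups, in both directions, and their part in the results was not tested. Of the 7 promyelocyte markers 6 were tested. Among these 4 fell (66.7%, against 19.1% of all genes tested) and 1, CD33, rose (16.7%, against 21.6%). CTSG fell the most (log2 fold change -3.91). Summed over all 7 markers, the level was 16611 and 17405 CPM in the vector libraries and 10504 and 10463 CPM in the JMJD3 libraries. Most of this was MPO. Of the 8 erythroid markers 6, the globins and ALAS2, had 0 counts in every library, where a count of 0 allows up to 3 counts (0.0786 to 0.081 CPM, counting error only). The list's summed level of 2.94 and 3.09 CPM in the vector libraries and 8.94 and 8.67 CPM in the JMJD3 libraries was mostly EPOR, which rose. The T cell list summed to 4.1 and 5.71 CPM in the vector libraries and to 11.8 and 11.7 CPM in the JMJD3 libraries, mostly CD2, which rose, while CD3D, CD3E and CD3G had at most 10 counts in a library. The B cell list summed to 25.9 and 30.8 CPM in the vector libraries and to 36.6 and 32.8 CPM in the JMJD3 libraries, mostly CD79B. Of its genes CD79A rose and MS4A1 had 0 counts. The macrophage list summed to 19.3 and 18.4 CPM in the vector libraries and to 35.5 and 33.9 CPM in the JMJD3 libraries, mostly CD68. CD68 and CSF1R rose, while CD163, MRC1 and MARCO had at most 2 counts in a library.

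**Figure D5:**
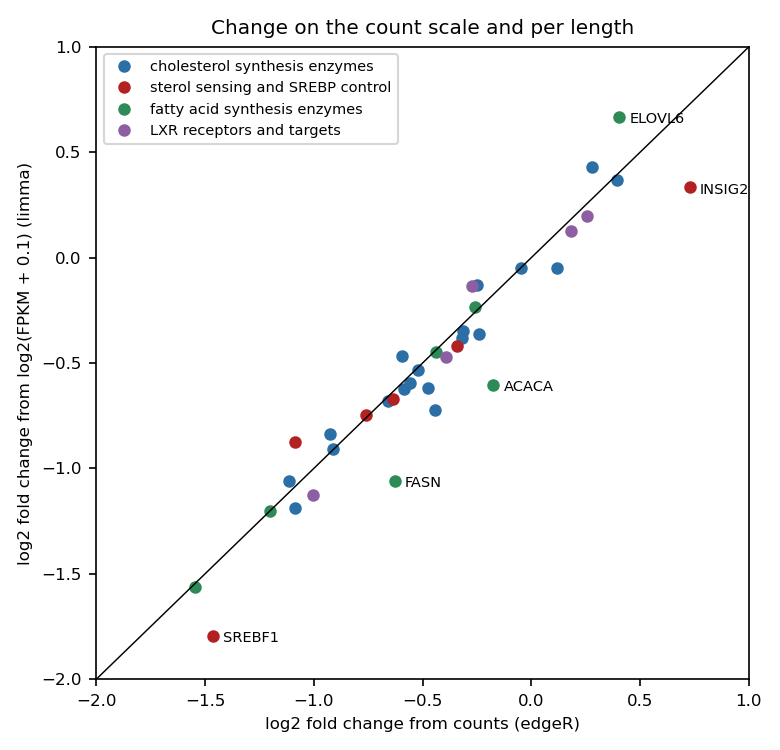
Log2 fold change (JMJD3 over vector) from counts with edgeR (x axis) and from log2(FPKM + 0.1) with limma (y axis) for the 37 lipid synthesis genes with an FPKM of at least 1 in every library, with the line of equal values. FASN, ACACA, SREBF1 and INSIG2 lie below the line and ELOVL6 above it.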

How the data were processed

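RNA-seq libraries of NB4 cells (2 vector, 2 JMJD3) were used. The table deposited by the authors holds estimated counts and FPKM, each for all genes in all libraries. The methods name STAR, hg19, HTSeq-count and DESeq2, while the submitters' processing notes name GRCh38, CASAVA 1.8, TopHat2 2.0.4, RSEM and edgeR. Of the nonzero deposited counts 99.4% are not exactly whole, so they were treated as estimated counts and rounded. The authors' fold changes, p-values, FDR, calls and group means were not used. The medium and RNA kit differ between the labels (DMEM, Trizol) and the methods (RPMI-1640, a column kit).

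Genes kept by filterByExpr (15246 of 60662) were fitted with TMM-scaled library sizes in edgeR 4.0.16 (quasi-likelihood functions glmQLFit and glmQLFTest, R 4.3.3), JMJD3 against vector with no covariate, and p was adjusted by Benjamini-Hochberg over all genes tested. An SE is the absolute log2 fold change over the root of the F statistic. The fits were tested on simulated counts. Alternatives were DESeq2 1.42.0 size factors and Wald test, upper quartile scaling, limma 3.58.1 on log2 FPKM with pseudocounts of 1 or 0.1, omitting the filter, requiring 10 counts in every library, a replicate block, each library left out, and a 2-fold condition. The genes and lists were chosen with earlier results of these data known. All 38 genes are named, with KDM6B and, from each list of other lipid genes, up to 3 rising and 3 falling genes with the largest changes at an adjusted p under 0.05. A promoter was to be printed for genes with a TCACNCCAC match. Genes outside the lists were not analysed here, and a gene of the SREBP processing list and an erythroid marker are not reported here. Python 3.11.15 was used for summaries.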

Additional observations from a re-analysis of the deposited data

How the results depend on the processing

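KDM6B was called higher under every alternative, with log2 fold changes from 1.36 to 1.58 with a library left out. Across the 38 genes, 392 single values under an alternative kept their direction and side of the threshold, 46 lost a call, 12 gained one and 5 changed sign. Leaving aside the 2-fold condition, the genes called under every alternative that gave them a value numbered 12 besides ABCG1, and 16 besides ABCG1 were called under every alternative that kept all libraries. Beside the main counts of 3292 genes higher and 2906 lower, limma on log2(FPKM + 1) and log2(FPKM + 0.1) called 2046 and 2032 higher and 2260 and 2291 lower, no filter 1893 higher and 1776 lower (more genes were tested), and the 2-fold condition 1151 and 430. With a library left out, 1920 to 4343 were higher and 1133 to 4183 lower. Of the 38 genes, limma called 1 higher at either pseudocount (ABCG1), no filter 2 (ABCG1 and INSIG2), and the 2-fold condition 1 higher (ABCG1) and 7 lower, where ABCG1 passed the filter only through the JMJD3 libraries. With a library left out, 2 to 5 were higher and 15 to 26 lower, with more lower than with all libraries when a vector library was left out and fewer when a JMJD3 library was. The median log2 fold change of the sterol control genes, -0.70, was -0.73 with DESeq2 size factors and its Wald test, -0.66 with upper quartile scaling and -0.75 to -0.68 with a library left out. That of the cholesterol enzymes was -0.55 to -0.44 with a library left out. That of the fatty acid enzymes was -0.58 and -0.60 with limma at pseudocounts of 1 and 0.1, and -0.51 to -0.40 with a library left out. That of the LXR group was -0.27 with a minimum of 10 counts, which removes ABCG1. TM7SF2 changed sign with limma, to -0.047 and -0.051 at pseudocounts of 1 and 0.1, and ran from -0.040 to 0.27 with a library left out. HSD17B7 ran from -0.23 to 0.11 with a library left out. With limma on log2(FPKM + 0.1), added after seeing the data, PPARA turned to -0.45 and LPIN1 to -0.37. Except where construction is named, the cause was not tested. The share of higher among all calls was 53.1%, and it was 59.4% with upper quartile scaling, 49.7% with DESeq2 size factors, 47.2% with the DESeq2 Wald test, and 47.5% and 47% with limma at pseudocounts of 1 and 0.1. The median of all genes moved by under 0.1 in each scaling.

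The replicate numbers are not known to pair the libraries, and the deviations of replicate 1 from its group mean had a correlation of -0.146 between vector and JMJD3 across 15246 genes, which are not independent. With the replicate block, 3267 genes were higher and 2415 lower, among them 3 and 21 of the 38, with PMVK, SQLE and SCAP no longer called and KDM6B at 1.47. With the replicate block the medians were -0.48, -0.70, -0.44 and -0.043 for the cholesterol, sterol control, fatty acid and LXR groups. A block with crossed numbers, added after seeing the data, called 4335 genes higher and 3772 lower, among them 6 and 26 of the 38. Depth limits ABCG1 most, with 3 counts in each vector library.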

Other observations

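For a few of the lipid genes the count scale and the FPKM scale gave different changes. The ratio of count to FPKM, scaled to the library total, is the transcript length in kb implied by the deposited values, and it shifted between groups by over 0.3 (log2, relative to the median of genes) for 5 of the 37 lipid genes with an FPKM of at least 1 in every library. Of all 11554 such genes 8.09% shifted as much. The kb values below are not corrected for the median shift of 0.195 (log2) that these genes share, while the relative shifts are. For FASN the implied length was 4.59 and 3.9 kb in the vector libraries and 6.15 and 6.67 kb in the JMJD3 libraries, a relative shift of 0.40, and its log2 fold change was -0.63 from counts and -1.06 from log2(FPKM + 0.1). For ACACA it was 3.8 and 3.47 kb in the vector libraries and 5.78 and 5.25 kb in the JMJD3 libraries, a relative shift of 0.41, with log2 fold changes of -0.18 and -0.60. For SREBF1 it was 1.6 and 1.7 kb in the vector libraries and 2.28 and 2.4 kb in the JMJD3 libraries, a relative shift of 0.31, with log2 fold changes of -1.46 and -1.79. INSIG2 went the same way, from 1.63 and 1.54 kb to 2.32 and 2.34 kb, a relative shift of 0.36. ELOVL6 differed between replicates, at 1.4 and 3.39 kb in the vector libraries and 1.66 and 2.48 kb in the JMJD3 libraries. The threshold and these genes were chosen after their values were seen, and no deposited value used here gives isoforms.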
